A study of Mus musculus with 8 samples.

Results

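The paired-box (Pax) genes encode transcription factors that share a DNA-binding paired domain. In the neural tube they are read as markers of dorsoventral position: Pax3 and Pax7 mark dorsal progenitors, Pax6 marks a broad intermediate band, and Sonic hedgehog from the ventral midline restricts all of these ventrally, while Nkx2-2 and Pax6 repress each other at the most ventral boundary. Pax2, Pax5 and Pax8 act at the midbrain-hindbrain boundary, in interneurons and in the kidney, ear and thyroid, Pax5 also specifies B cells, and Pax1 and Pax9 mark sclerotome and pharyngeal pouches, in the sclerotome as targets of Hedgehog signalling.

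Members were Pax1, Pax2, Pax3, Pax5, Pax6, Pax7, Pax8 and Pax9, taken as every non-control probe set of the array whose annotation names one of them and no other gene. This gave 19 of 45037 probe sets, for 7 of the 8 genes: 5 for Pax6, 3 each for Pax3 and Pax9, and 2 each for Pax1, Pax5, Pax7 and Pax8. Pax2 was not analysed here. The samples were mouse embryoid bodies, aggregates formed by embryonic stem cells in suspension, from the line YFP3.1 with constitutively expressed Gli1FLAG, a tagged form of the Hedgehog (Hh) pathway transcription factor Gli1. One condition was 500 nM retinoic acid with 1 uM of the Hh agonist HH-Ag (4 arrays, replicates 5 to 8), and it was set against 500 nM retinoic acid alone (4 arrays, replicates 1 to 4). In both, bodies spent 2 days in suspension before treatment, and for 7 of the 8 samples the labels place collection at day 3 of differentiation. Both groups carry Gli1FLAG, so neither shows the pathway without added Gli1, and for replicate 7 the labels give neither line nor day. The labels number the samples without saying whether they came from separate cultures, so a p-value here reflects variation among 4 samples a group that may be technical, and precision is limited by the small number of arrays.

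Arrays had medians of 21.6 to 22.6 intensity units. Pairwise Pearson's r was taken over the 27022 probe sets bright enough to be tested, which are no independent replicates. It was 0.973 to 0.982 for arrays of the same treatment and 0.964 to 0.979 for arrays of different treatments. Replicates 1 and 5 were hybridised on an earlier day and on another chip lot than the other 6 arrays. On the later day, station 1 washed the retinoic acid arrays and station 2 the agonist arrays, so station and treatment cannot be told apart there. The earlier pair shared station 1. Of the neural progenitor markers, Sox2 (285.5 ± 26.9 with the agonist and 340 ± 44.9 with retinoic acid alone; mean intensity ± SD, n = 4 each) and Nes (268 ± 5.09 and 261.5 ± 26.7) were well above the filter level of 15.1, whereas Sox1 was dim (18.6 ± 9.82 and 9.71 ± 5.03). Of 8 tested progenitor markers 2 rose, Fabp7 and Vim (limma adjusted p = 0.00113 and 0.0194), and 0 fell. Of 8 tested neuron markers 7 rose and 0 fell, with a median log2 change of 1.26, among them Elavl4, an RNA-binding protein gene (1.91), Nefm, a neurofilament gene (1.61), and Stmn2, a microtubule regulator gene (1.61), while Dcx did not pass. Of 8 tested pluripotency markers 2 fell, Dppa4 with a log2 change of -0.378 and Klf2 with -0.447 (limma adjusted p = 0.0121 and 0.0427), and 0 rose, with a median of -0.295, and Pou5f1 at 113 ± 19.15 in agonist bodies and 141 ± 42.35 in retinoic acid bodies did not pass. The summed intensity of 8 neuron markers lay between 1954 and 2128 on the agonist arrays, against 671 to 760 on the retinoic acid arrays. That of 9 neural progenitor markers lay between 2616 and 2845, against 2301 to 2582, and that of 8 pluripotency markers between 5051 and 5352, against 4974 to 5721, of which Dppa5a alone averaged 3944 with the agonist and 3962 with retinoic acid alone. Their part in the Pax results was not tested.

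Pax6 was the only member called as different between the groups, so the sequence before its start sites is shown. RefSeq's promoter table for GRCm38.p6 matched 7 of the 8 members, the exception being Pax3, and gives 2 start sites for Pax6, both on chromosome 2, plus strand. The 250 bases before each are printed 5′ to 3′. Capitals mark a cAMP response element (TGACGTCA) and a CCAAT box.
Pax6 upstream start, chr2:105668646-105668895: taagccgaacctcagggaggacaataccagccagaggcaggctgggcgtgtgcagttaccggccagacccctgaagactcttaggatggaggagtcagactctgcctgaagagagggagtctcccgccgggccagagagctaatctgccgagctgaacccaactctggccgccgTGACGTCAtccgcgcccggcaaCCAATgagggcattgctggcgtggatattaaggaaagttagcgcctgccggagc
Pax6 downstream start, chr2:105682213-105682462: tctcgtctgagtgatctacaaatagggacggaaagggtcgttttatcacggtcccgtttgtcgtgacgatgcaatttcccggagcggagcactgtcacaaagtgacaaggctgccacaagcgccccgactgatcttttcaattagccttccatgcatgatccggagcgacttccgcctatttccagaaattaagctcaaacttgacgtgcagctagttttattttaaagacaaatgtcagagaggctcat

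Both strands of the 300-base windows, which add 50 bases after the start, were searched for 5 motifs, overlaps allowed. The upstream Pax6 window held TGACGTCA, which begins at position -76 from the start and is its own reverse complement, and CCAAT, which begins at position -54. Of all 32851 promoter windows 1.79% held the first and 37.4% the second. The downstream Pax6 window held neither. The Gli consensus GACCACCCA, present in 0.253% of all windows, the retinoic acid receptor core AGGTCA, present in 16.3%, and TATAAA, present in 13.6%, were in none of the 10 windows of Pax genes. Of the other members, Pax8 and Pax1 held CCAAT. The matches are letters in a window, and which Pax6 start site was used in these bodies was not measured.

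Pax6 fell with the agonist on each of its 3 brighter probe sets, and no other tested Pax gene passed. Pax7 was too dim to be tested. On probe set 1452526_a_at, the intensities were 13.7, 10.3, 7.26 and 15.3 on the agonist arrays, against 37.7, 38.3, 39.4 and 49.8 on the retinoic acid arrays. On 1425960_s_at they were 6.84, 11.5, 9.81 and 6.24 with the agonist, against 37.2, 38.0, 33.0 and 33.3 with retinoic acid alone. On 1419271_at they were 7.61, 8.08, 9.73 and 7.24 with the agonist, against 24.9, 30.9, 30.8 and 40.4 with retinoic acid alone. In all 3 every agonist array lay below every retinoic acid array, without overlap. The agonist values lay near or under the filter level of 15.1, so Pax6 was close to the dim end of the array in agonist bodies. Because RNA was taken from whole bodies, fewer Pax6-expressing cells and less Pax6 RNA per cell cannot be told apart.

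Changes were tested with limma on log2(intensity + 16) over 27022 probe sets, where a log2 fold change is agonist minus retinoic acid alone and the added 16 makes changes of dim probe sets smaller. Pax6 fell by 1.06 on 1452526_a_at (SE 0.13, adjusted p = 9.805e-05), by 1.07 on 1425960_s_at (SE 0.13, adjusted p = 6.545e-05) and by 0.97 on 1419271_at (SE 0.14, adjusted p = 0.000350). Of the 19 Pax probe sets 10 were bright enough to be tested, 3 were called lower, all of Pax6, and 0 higher. In the background of all tested probe sets, 1.87% were called, made up of 0.733% lower and 1.14% higher. The 3 Pax6 probe sets share a gene and are not independent, and they passed the filter through the retinoic acid arrays, so the count over tested members is a description. The median change of the 10 tested Pax probe sets was -0.046 on the log2 scale, against -0.0047 for all tested probe sets.

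The Pax6 drop was compared between probe sets and between hybridisation days. The change on 1452526_a_at differed by 0.010 from that on 1425960_s_at (exact permutation p = 0.943, adjusted over 4 pairs 0.943) and by -0.082 from that on 1419271_at (exact permutation p = 0.657, adjusted 0.876). With 4 against 4 arrays the smallest exact p is 0.0286. At that value 1 pair would be at 0.114 after adjustment, and 2 pairs at 0.0571. This test could therefore not call 1 pair or 2 pairs, and it does not show that the probe sets respond alike. In the pair of arrays hybridised on the earlier day, with 1 array a group, no test and the same wash station, the log2 change was -0.86 on 1452526_a_at, -1.22 on 1425960_s_at and -0.79 on 1419271_at. On the later day, with 3 arrays a group, it was -1.12, -1.02 and -1.03 in the same order (limma adjusted p = 0.000686, 0.00147 and 0.00137). Without retinoic acid replicate 4, which had the highest value on 1452526_a_at and 1419271_at, the change was -0.99 on 1452526_a_at and -0.89 on 1419271_at, and both still passed.

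**Figure D1:**
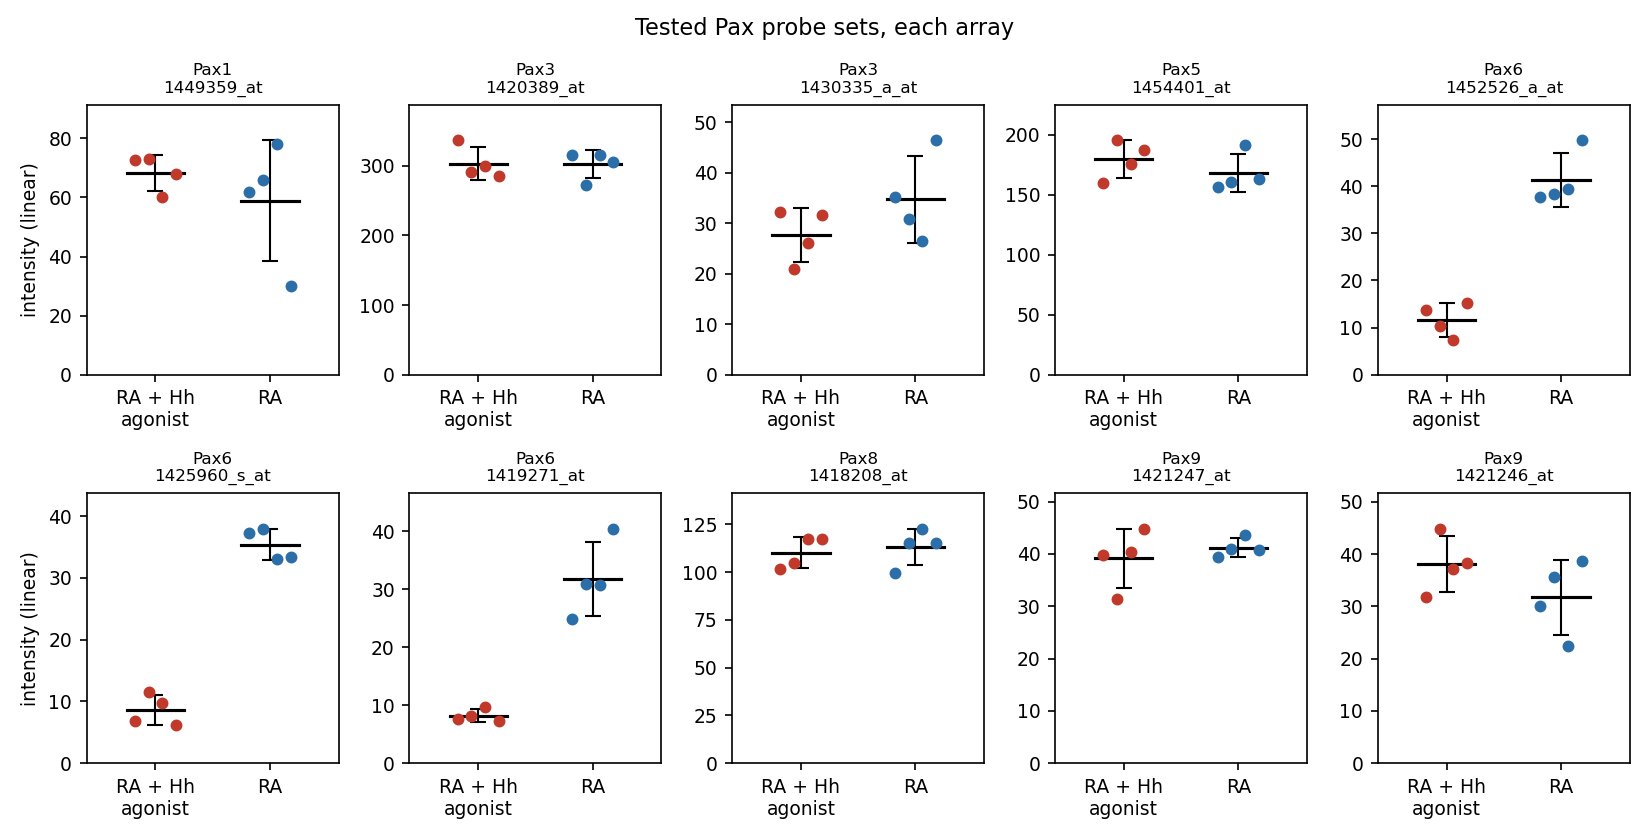
Linear intensity (vertical axis, from 0) of the 10 tested Pax probe sets on every array, with agonist arrays in red on the left and retinoic acid arrays in blue on the right, and bars for mean and SD (n = 4 each). On the 3 Pax6 panels the groups do not overlap, with agonist values of 6.24 to 15.3 against 24.9 to 49.8 with retinoic acid alone, while on the other 7 panels they do.

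Another 2 Pax6 probe sets were too dim to be tested and did not show the same pattern. Probe set 1456342_at had 11.9, 15.5, 9.57 and 7.10 with the agonist, against 12.4, 8.74, 14.4 and 7.31 with retinoic acid alone. Probe set 1437816_at had 19.55, 7.27, 5.18 and 1.14 with the agonist, against 14.8, 10.6, 13.65 and 14.5. Its 3 lowest values were agonist arrays and its highest was agonist replicate 5, so the groups overlapped. Fitted without the filter, their changes were 0.015 and -0.325 (limma adjusted p = 0.990 and 0.617). Where on the Pax6 transcripts each probe set lies was not examined. Pax6os1, an opposite-strand transcript at the Pax6 locus and not a member, had 3.36 to 9.55 with the agonist and 0.732 to 6.49 with retinoic acid alone.

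The dorsal gene Pax3, which acts in the dorsal neural tube, neural crest and muscle precursors, was bright on 1 probe set and level between the groups. On 1420389_at the intensities were 337, 290.5, 299 and 285 with the agonist, against 315, 273, 316 and 306 with retinoic acid alone. The groups overlapped, and the log2 fold change was 0.0014 with a 95% interval of -0.15 to 0.15, a fold between 0.901 and 1.11 on this scale (limma adjusted p = 0.997). The other tested Pax3 probe set, 1430335_a_at, had 32.3, 20.85, 26.0 and 31.6 with the agonist, against 35.1, 30.8, 26.4 and 46.4. Its lowest values were from agonist replicates 6 and 7 and its highest from retinoic acid replicate 4, and its change of -0.21 did not pass (95% interval -0.49 to 0.078, limma adjusted p = 0.5955). Its change differed from that of 1420389_at by 0.21 with the brighter minus the dimmer (exact permutation p = 0.257, adjusted over 4 pairs 0.629). A further Pax3 probe set, 1441743_at, was listed at 1.53e-07 to 9.73 with the agonist and 1.09 to 10.7 with retinoic acid alone.

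Pax7, the close relative of Pax3 in dorsal progenitors and muscle stem cells, was below the filter on both probe sets. On 1444596_at the values were 7.37, 1.98, 1.29 and 4.34 with the agonist, against 16.2, 9.12, 16.6 and 14.8 with retinoic acid alone. All agonist arrays lay under all retinoic acid arrays, though every value is in the range of dim probe sets. The ratio of mean intensities, retinoic acid alone over agonist, was 3.79. On the called Pax6 probe sets 1452526_a_at, 1425960_s_at and 1419271_at it was 3.55, 4.12 and 3.89. Fitted without the filter, the log2 change was -0.615 (SE 0.15, 95% interval -0.93 to -0.30, limma adjusted p = 0.0514), which misses the threshold. The other Pax7 probe set, 1452510_at, had 9.135, 9.50, 13.0 and 16.8 with the agonist, against 10.5, 10.6, 18.3 and 15.5, with overlap and a change of -0.080 (limma adjusted p = 0.926 without the filter). The 2 Pax7 probe sets therefore differed in whether the groups overlapped, and neither was bright enough to be tested with the rest.

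**Figure D2:**
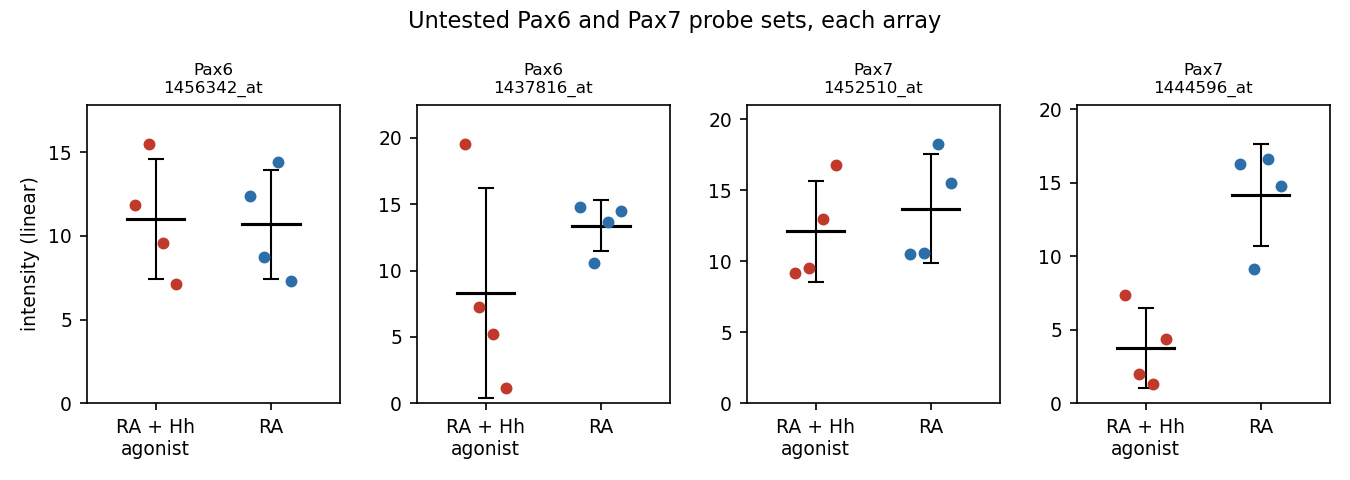
Linear intensity (vertical axis, from 0) of the 2 dim Pax6 probe sets and the 2 Pax7 probe sets on every array, agonist arrays in red on the left and retinoic acid arrays in blue on the right, with mean and SD (n = 4 each). The groups overlap except on Pax7 1444596_at, where agonist values of 1.29 to 7.37 lie below 9.12 to 16.6.

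In the Pax2, Pax5 and Pax8 subfamily, neither measured gene passed. Pax5, the B cell and midbrain-hindbrain factor, had 160, 195.5, 176 and 188 on 1454401_at with the agonist, against 157, 161, 191 and 163 with retinoic acid alone. The groups overlapped, and the log2 change of 0.089 had a 95% interval of -0.088 to 0.27 (limma adjusted p = 0.736). The other Pax5 probe set, 1421765_at, was dim at 12.1 to 21.97 with the agonist and 1.81 to 18.5 with retinoic acid alone, with a change of 0.34 (limma adjusted p = 0.598 without the filter). Pax8, which acts in thyroid, kidney and ear development, had 102, 104.5, 117 and 117 on 1418208_at with the agonist, against 99.6, 115, 122.5 and 115. Its change of -0.033 had a 95% interval of -0.22 to 0.15 (limma adjusted p = 0.927), and its dim probe set 1446561_at had 5.24 to 21.4 with the agonist and 9.05 to 14.0 with retinoic acid alone. No detection calls were used, so a bright value is a measured intensity and not by itself evidence that the gene is expressed.

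Pax1 and Pax9, sclerotome and pharyngeal genes, did not pass either. Pax1 had 72.5, 73.0, 60.01 and 67.8 on 1449359_at with the agonist, against 61.8, 65.8, 78.1 and 30.0 with retinoic acid alone. The low value was retinoic acid replicate 4: with it the log2 change was 0.22 (95% interval -0.12 to 0.56, limma adjusted p = 0.658), and without it -0.0020. Pax9 had 39.85, 31.5, 40.4 and 44.8 on 1421247_at with the agonist, against 39.45, 40.9, 43.7 and 40.7, a change of -0.058 (95% interval -0.28 to 0.17, limma adjusted p = 0.885). On 1421246_at Pax9 had 31.8, 44.9, 37.2 and 38.4 with the agonist, against 30.1, 35.6, 22.4 and 38.65, a change of 0.19 (95% interval -0.080 to 0.45, limma adjusted p = 0.6135). The 2 Pax9 probe sets, neither of which passed, had changes of opposite sign. Their difference was -0.245 (exact permutation p = 0.314, adjusted over 4 pairs 0.629). The dim probe sets of both genes, 1443476_at for Pax1 and 1442229_at for Pax9, had 6.83 to 14.0 and 5.38 to 9.87 with the agonist, and 3.90 to 12.0 and 2.105 to 4.95 with retinoic acid alone. The Pax9 values did not overlap between the groups, but the change of 0.22 did not pass without the filter (limma adjusted p = 0.686).

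**Figure D3:**
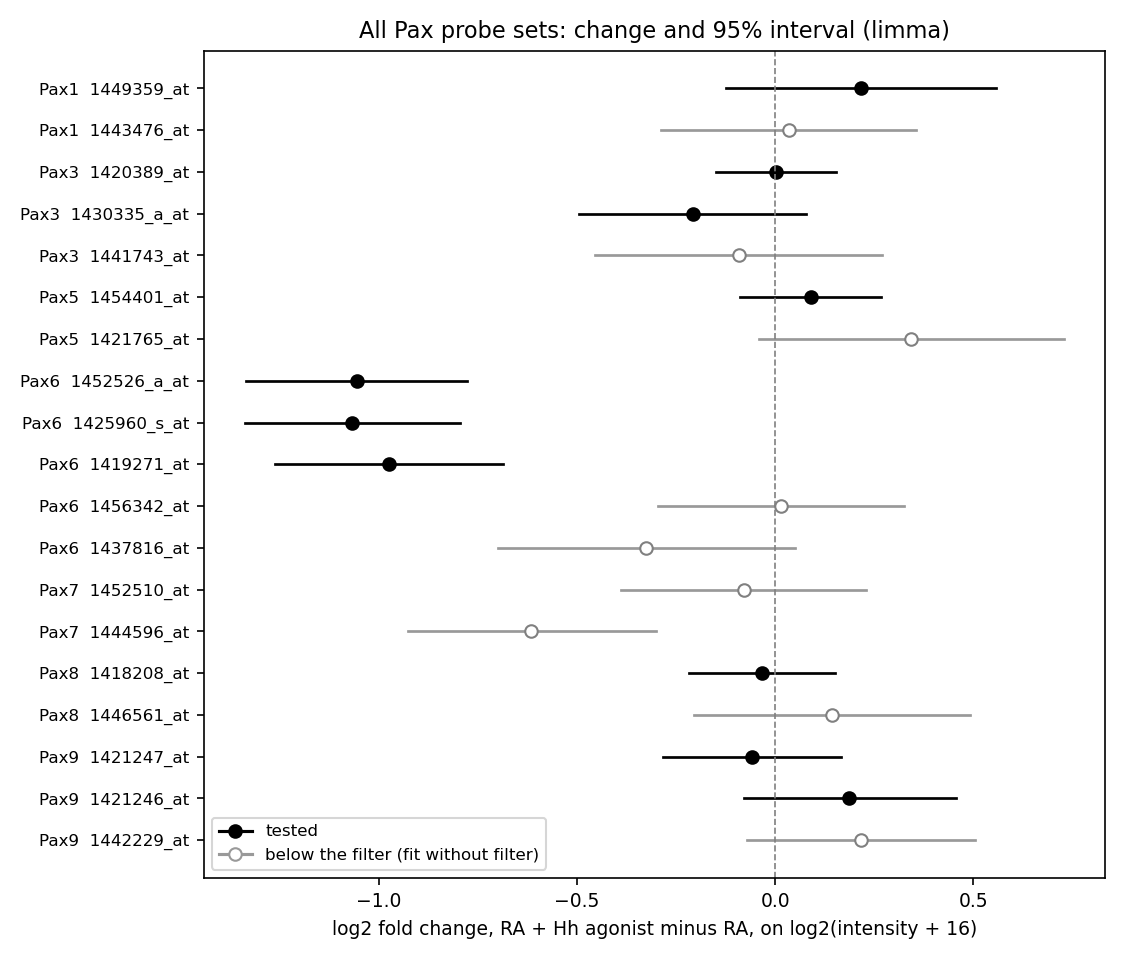
Change (horizontal axis, log2 fold change of agonist minus retinoic acid alone) of all 19 Pax probe sets with the 95% interval from limma, filled for the 10 tested and open for the 9 below the filter, which were fitted without it. The 3 tested Pax6 probe sets lie between -1.07 and -0.97, and the other 7 tested ones between -0.21 and 0.22 with intervals that include 0.

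Over the 7 tested probe sets outside Pax6, changes ran from -0.21 to 0.22 and the widest interval limits were -0.49 and 0.56, so a change of the size found for Pax6 lay outside every one of these intervals. The change of Pax6 on its brightest probe set was set directly against that of each other tested Pax gene, a comparison chosen after seeing the data. The difference, Pax6 minus the other gene, was -1.27 for Pax1, -1.06 for Pax3, -1.145 for Pax5, -1.02 for Pax8 and -0.998 for Pax9 on the log2 scale. All 5 use the same Pax6 values and are not independent. Since Pax6 was picked for its change, these differences are a description with no test. In the untested remainder, the groups did not overlap for 2 of 9 probe sets, 1444596_at of Pax7 and 1442229_at of Pax9. Among tested Pax probe sets they did not overlap for 3 of 10, all of Pax6. These share a gene and passed the filter through the retinoic acid arrays, so this count is a description. Among all tested probe sets the groups did not overlap for 7.06%. That share covers tested probe sets only. None was computed for untested ones, so the count of 2 of 9 has no background and is a description. The dimmest tested member was Pax6 1419271_at, with a mean of 5.08 on the log2 scale, and the brightest untested one was Pax5 1421765_at at 4.87, on either side of a filter at 4.96. Pax4, a Pax6 relative outside the member list, had 20.2 to 31.0 with the agonist and 17.5 to 27.7 with retinoic acid alone on its probe set 1451598_at (limma adjusted p = 0.986).

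Genes around Pax6 along the dorsoventral axis were described by the brightest probe set of each gene, and 2.18% of 13675 genes were called, 1.31% as higher and 0.870% as lower. Of 11 tested class I and dorsal factors, the genes that Hh represses or confines to dorsal positions, 2 fell, 0 rose and 9 did not pass, with a median of -0.076. Dbx1, a progenitor factor from the middle of the axis, had 8.61 ± 4.06 with the agonist and 169 ± 16.7 with retinoic acid alone, and fell by 2.92 on the log2 scale (limma adjusted p = 3.53e-11). Irx3, which borders ventral domains, had 33.5 ± 2.57 and 114 ± 15.8 and fell by 1.385 (limma adjusted p = 1.07e-07). The dorsal gene Msx1, like Pax3, did not pass, at 41.7 ± 3.82 and 47.0 ± 4.10. Its relative Msx2 was lower with the agonist, at 26.6 ± 4.08 and 45.9 ± 11.8. The Msx2 change of -0.52 just missed the threshold (limma adjusted p = 0.0588). Of 7 tested class II and floor plate genes, which Hh induces, 5 rose and 0 fell, with a median of 1.565: Nkx2-9 (log2 change 3.16), Foxa2 (2.54), Nkx6-1 (1.77), Olig2 (1.565) and Olig1 (1.501). Shh, at 38.4 ± 8.27 with the agonist and 35.1 ± 8.24 with retinoic acid alone, did not pass (limma adjusted p = 0.852). Nor did Foxa1, at 45.1 ± 9.58 and 45.45 ± 6.81 (limma adjusted p = 0.982). Nkx2-2, the factor known to exclude Pax6 from the most ventral progenitors, was below the filter at 13.75 ± 2.10 with the agonist and 8.23 ± 1.73 with retinoic acid alone.

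Pax6 cofactors and known targets moved in both directions. Of 20 tested, 4 rose, 2 fell and 14 did not pass, with a median of -0.035. Sfrp2, a secreted Wnt modulator and Pax6 target in the forebrain, had 76.9 ± 12.2 with the agonist and 340 ± 52.05 with retinoic acid alone, and fell by 1.94 on the log2 scale (SE 0.11, limma adjusted p = 2.30e-09). Wnt7b, a Wnt ligand, fell by 0.46 (limma adjusted p = 0.0277). Neurog2, a proneural gene with a Pax6-dependent enhancer, rose against the direction of Pax6, with 100 ± 8.75 and 45.3 ± 4.895 and a log2 change of 0.93 (SE 0.097, limma adjusted p = 1.07e-05). Fabp7, a radial glia gene and Pax6 target in the forebrain, likewise rose, with 51.1 ± 5.67 and 24.6 ± 4.27 (log2 change 0.73, limma adjusted p = 0.00113). Sox11 and Sfrp1 rose by 0.41 and 0.40 (limma adjusted p = 0.000559 and 0.0251). Meis2, a direct activator of Pax6 in other tissues, had 307 ± 14.2 and 293 ± 11.9 and did not pass, nor did Sox2.

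**Figure D4:**
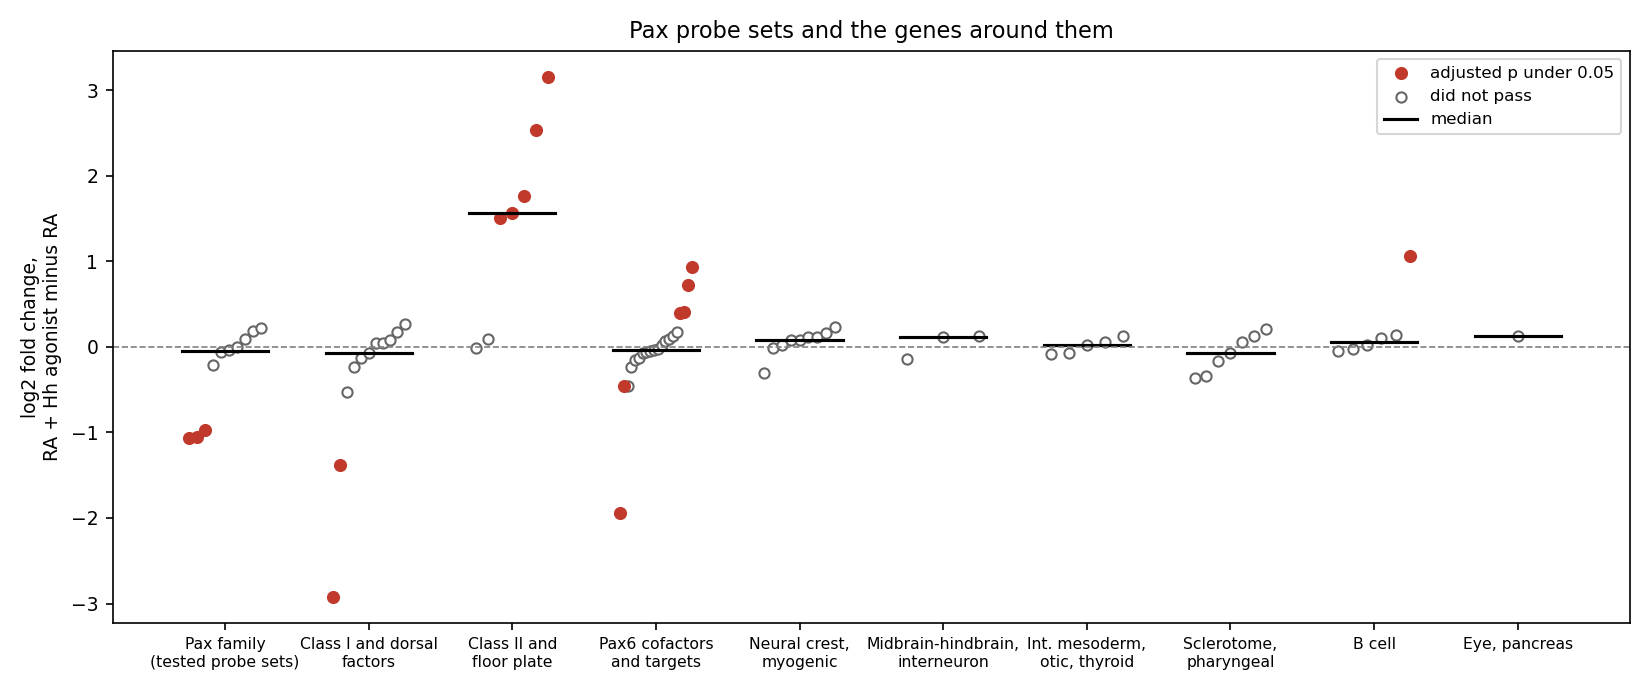
Log2 fold change (vertical axis, agonist minus retinoic acid alone) of the 10 tested Pax probe sets and of the tested genes in the 9 lists around them, each gene by its brightest probe set, with calls in red and the list median as a bar. Pax6, Dbx1, Irx3, Sfrp2 and Wnt7b are the calls below 0, and the class II list has a median of 1.565.

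In the 6 lists for other tissues in which Pax genes act, 1 of 31 tested genes was called, or 3.23%, near the 2.18% of all genes. None of 9 tested neural crest and myogenic genes passed (median 0.082), with Sox10 at 58.6 ± 10.3 in agonist bodies and 54.8 ± 12.45 in retinoic acid bodies. Foxd3 was below the filter at 14.65 ± 3.86 and 12.5 ± 3.79. Ret, whose mean over the 8 arrays was also below the filter, had 26.2 ± 6.95 in agonist bodies and 5.97 ± 2.21 in retinoic acid bodies. Its log2 change of 0.93 was not tested. Of the midbrain-hindbrain and interneuron list 3 of 13 measured genes were bright enough to be tested and 0 passed (median 0.11), En1, En2, Wnt1 and Fgf8 being below the filter. None of 5 tested intermediate mesoderm, otic and thyroid genes (median 0.017), 7 sclerotome and pharyngeal genes (median -0.078) or the 1 tested eye and pancreas gene, Rax (145 ± 16.9 and 131 ± 13.4), passed. Of 6 tested B cell genes Ebf1 rose, with 71.0 ± 2.08 and 27.4 ± 13.9 (log2 change 1.06, limma adjusted p = 0.00107), a factor that also acts in early neurons, while the B cell receptor gene Cd79a had 41.8 ± 2.79 and 43.8 ± 7.05. Of 8 tested mesoderm and endoderm markers 0 passed. The summed intensity of the 9 measured ones, which include the untested Afp, was 323 to 375 on the agonist arrays, against 331 to 395 on the retinoic acid arrays. No measured member of these lists was at 0 on all arrays.

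Genes whose values followed those of Pax6 most closely over the 8 arrays were ranked among 13669 other genes by Pearson's r of log2(intensity + 16), as a description. For Pax6 1452526_a_at they were Ndnf, a secreted neuronal protein gene (r = 0.979), Ccn1, a matrix-associated protein gene (0.977), Rps6ka6, a ribosomal S6 kinase gene (0.974), Dbx1 (0.969) and Fam25c (0.967), and 85 genes had r above 0.9. The gap between the groups enters these values. Ndnf had 6.72 ± 3.51 with the agonist and 47.1 ± 4.44 with retinoic acid alone. Ccn1 and Fam25c did not pass the test of the groups (limma adjusted p = 0.105 and 0.180). For Pax3 1420389_at, which showed no gap between the groups, the closest were Gm34292 (0.962), Bpifa5 (0.956), Syvn1 (0.953), Cntrob (0.939) and Foxl2 (0.938), with 19 genes above 0.9. For the dim Pax7 1452510_at they were Fam181b (0.954), Crygd (0.938), Cuedc1 (0.936), Wdr60 (0.918) and Cacna1d (0.916), with 8 above 0.9. None of the genes named for Pax3 and Pax7 passed the test of the groups.

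The Pax6 result was recomputed under other settings. On the 3 called probe sets it passed in all 51 values from the 17 settings that gave a test, with limma adjusted p between 4.55e-05 and 0.00261. With a filter at the 60th percentile, or with the mean over its probe sets, Pax6 was too dim to be tested. The size of the change depended on the number added to the intensities: it lay between -1.96 and -1.78 with 1 added, and between -0.48 and -0.41 with 64 added.

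**Figure D5:**
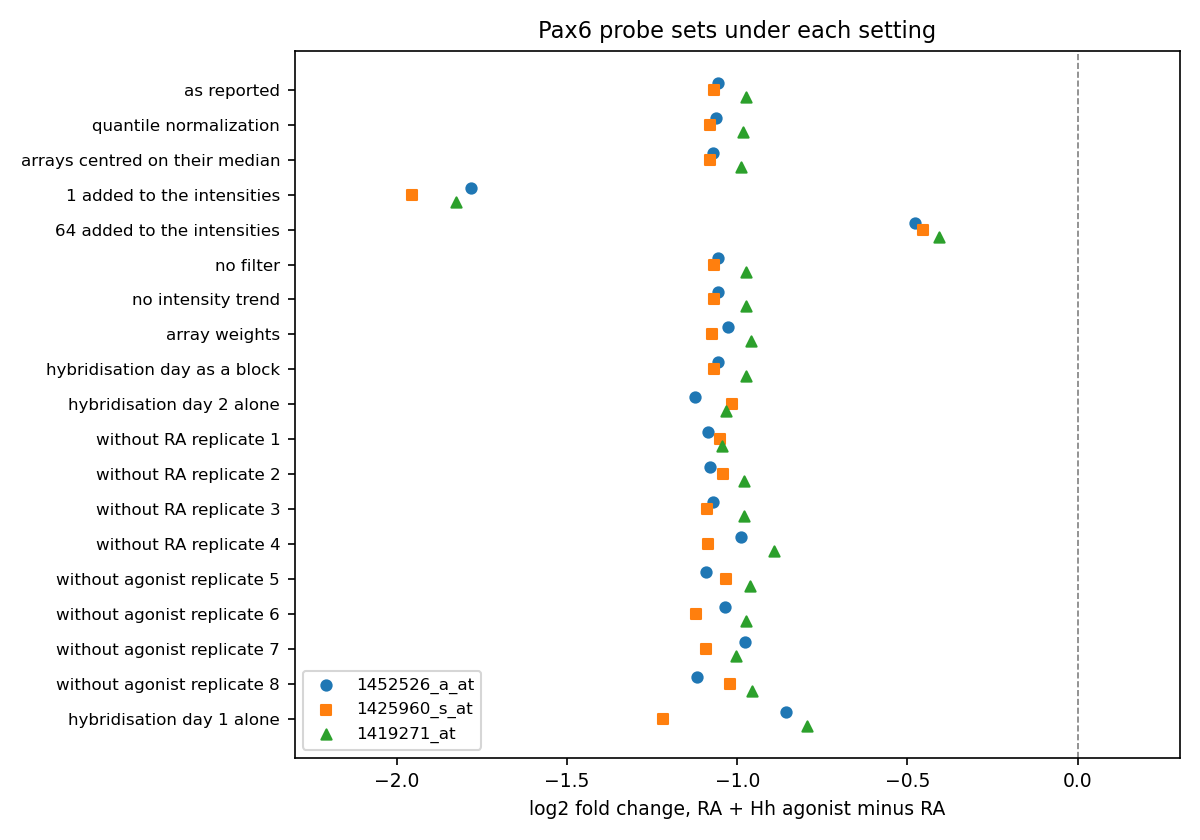
Log2 fold change (horizontal axis, agonist minus retinoic acid alone) of the 3 called Pax6 probe sets (1 marker each) under every setting that gave a value, including each array left out in turn. Apart from the settings with 1 or 64 added, the values lie between -1.22 and -0.79.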

How the data were processed

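RNA from whole embryoid bodies, prepared with Trizol, was hybridised to 1-colour Mouse430_2 short-oligonucleotide arrays. In the deposited table each array has a linear intensity for every probe set, and the authors' scaling was kept. Their probe summary, background correction and scaling methods are not stated in the labels or headers. Hybridisation day, chip lot and wash station come from the instrument records, per the file headers. Probe sets were named from the platform annotation: of 45101, 34945 name 1 gene, 932 several and 9160 are not listed, and 64 are controls. By gene identifier 34741 matched the RefSeq gene table of GRCm38.p6.

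Intensities were turned into log2(intensity + 16). A filter kept probe sets with an 8-array mean over the 40th percentile, which is 15.1 in intensity. The 27022 kept were fitted with limma 3.58.1 in R 4.3.3 (lmFit, then eBayes with trend), and a call needed a two-sided p under 0.05 after Benjamini-Hochberg adjustment across them. The model was tested on simulated data. Differences between probe sets were compared by exact permutation. Genes in lists were taken by their brightest probe set. Tables used Python 3.11.15 with pandas 2.3.3 and numpy 2.4.6, and plots matplotlib 3.10.9. The text covers every Pax probe set, with all arrays for tested ones and for the brightest of Pax7, the 5 genes most like Pax6, Pax3 and Pax7, and per list at most the 3 called members with the largest change and 2 that did not pass. Outside this rule, named after their values were seen, are the per-array values of the dim Pax6 and the other Pax7 probe sets. So are Olig1, Olig2, Msx2, Wnt7b, Sox11, Sfrp1, Dppa5a, Pax4, Pax6os1 and the genes given as below the filter. The Pax members, gene lists and tests were chosen with earlier results of these data known.

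The alternatives were quantile normalization, centring on array medians, adding 1 or 64, removing the filter or raising it to the 60th percentile, weights for arrays, a fit without the trend, the mean over a gene's probe sets, hybridisation day as a block, each day alone, and leaving out each array.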

Additional observations from a re-analysis of the deposited data

Results flagged for a closer look

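In 2 of 38 groups of 4 values over the 19 Pax probe sets, a single array stood far from the other 3 by Dixon's test on the log2 scale, where chance gives about 1.9. Both were retinoic acid replicate 4. On Pax6 1452526_a_at it had 49.8, against 37.7 to 39.4 on the other retinoic acid arrays, and without it the log2 change was -0.99 in place of -1.06 (limma adjusted p = 0.000708). On the dim Pax9 1442229_at it had 2.1, against 4.65 to 4.95.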

How the results depend on the processing

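Of 206 single values recomputed for the 19 Pax probe sets, 202 moved by less than the spread between replicates or kept their call, and the other 4 were the earlier hybridisation day alone, with 1 array a group and no test: 3 Pax6 values already given and 1437816_at at 0.21. A kept call was enough to be among the 202, so that count does not measure how stable the sizes were. It includes Pax6 1425960_s_at, at -1.07 as reported and -1.96 with 1 added. No called value changed sign, and among uncalled values 11 changed sign, 7 in settings with a test and 4 on the earlier day alone. The 3 called Pax probe sets were 0 with a filter at the 60th percentile, because all 3 (means of 5.08 to 5.31 on the log2 scale) lie below that level of 5.53 and were not tested, and 0 with genes taken as the mean of their probe sets, because the Pax6 mean of 5.00 lay below the level of 5.18; its change there was -0.68. No Pax gene passed as a gene mean. The count over all probe sets, 506, was 264 without an intensity trend, 266 on the later day alone and 231 for gene means, and 298 to 615 with 1 array left out (324 without retinoic acid replicate 2 and 298 without agonist replicate 6); 3 Pax probe sets were called in each case but gene means. The 4 differences between probe sets of a gene say nothing of stability, since neither 1 nor 2 of them could pass after adjustment. The median change of all tested probe sets was -0.0047, and -0.0028 and -0.019 with quantile normalization and median centring. No paired analysis was possible because the groups share no replicate numbers. Without depth or detection calls, changes of dim probe sets are limited by signal over background, and Pax6 in agonist bodies is at that limit.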
